A study of Mus musculus with 12 samples.

Results

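TRIM proteins are a large family of ubiquitin ligases, and their transcripts were followed here in CT26, a mouse colon carcinoma cell line. Members were all gene symbols that begin with TRIM and a number. The table held 68 of them among 23636 symbols, and 39 had a mean of at least 0.2 TPM (transcripts per 1000000 transcripts) over the 12 libraries. Those 39 are described and tested below. The other 29 lay under that level, and 12 of them were listed at 0 in every library. The study compared untreated CT26 cells with cells given, for 8 hours, CX3CL1 alone (2 µg/ml of recombinant protein), IFN-γ alone (100 ng/ml) or both at those doses. Each of the 4 groups had 3 biological replicates of the same cell line, and the labels name no other allele or agent. The study's running text also names TNF-α and places CX3CL1 after the cytokines. Its figure legend, like the labels, names only IFN-γ and CX3CL1 for these groups. Which of these holds for the libraries could not be settled here. CX3CL1 is a chemokine that signals through the receptor CX3CR1, and the study asked how it changes the transcripts of tumor cells. IFN-γ is the type II interferon, made mainly by T cells and NK cells.

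The name TRIM stands for tripartite motif, a RING domain, B-box domains and a coiled coil in a row at the start of the protein. The RING domain passes ubiquitin from a conjugating enzyme to a target, and a C-terminal domain that differs between members, often a SPRY domain, chooses the target. Many SPRY members restrict viruses or tune the pathways that sense them, and interferons are known to raise several of them. A separate group with a PHD finger and a bromodomain works on chromatin, and others bind microtubules or muscle structures.

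Each library summed to 1000000 TPM, so the read depth is unknown, no counting error could be given, and a rise of abundant transcripts lowers all others. Because TPM are shares of a bulk RNA pool, fewer cells with a transcript and less of it per cell cannot be told apart. Of the epithelial markers, EPCAM was listed at 0 in all libraries and KRT8, KRT19, CDH1, CDX2 and VIL1 had means of at most 0.133 TPM, while KRT18 averaged 31.0 and the mesenchymal marker VIM 3208. The defining leukocyte markers PTPRC, CD3E, ITGAM and ADGRE1 had means of at most 0.0450 TPM, LYZ2 averaged 0.589 and CD68 13.4. A listed 0 may be a failed estimate, since the ribosomal protein gene RPL26, chosen after its values were seen, was also at 0 in all 12 libraries. CX3CL1 replicate 2 stood apart from its group (correlations of 0.984 and 0.987 with the other CX3CL1 libraries, against 0.994 between those). To a smaller degree CX3CL1+IFN-γ replicate 1 did so in its group (0.988 and 0.991, against 0.995).

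The members that rose and those that did not differed in the sequences at their start sites, given here as a description. The interferon-stimulated response element (ISRE) is a site that IRF proteins bind, and its core was searched as GAAANNGAA on both strands, from 250 bases before to 50 after each start in RefSeq (GRCm38.p6). Read on the strand of the gene, a match on the opposite strand has the letters TTCNNTTTC. Of the 31 members with a promoter in that table, 10 held the core. Among the members called higher after CX3CL1 or IFN-γ below, 8 of 10 with a promoter (80.0%) held it, against 2 of 20 uncalled members, TRIM2 and TRIM7. Over all 32851 promoters of the table the share was 8.56%. Over its 27025 genes, counted like the members by a match at any start, it was 9.76%. The counts of members are not of independent genes. TRIM30A, TRIM30D, TRIM12C, TRIM34A and TRIM34B lie in the same cluster of related genes on chromosome 7. TRIM30D and a start of TRIM30A share the same printed letters. The matches of the 8 raised members follow, each 5′ to 3′ on the strand of the gene, with the core in capitals. Where 2 cores overlap, as in TRIM21 and TRIM26, both are in capitals.
TRIM30A, chr7:104465210-104465238, minus strand: gttctttagtTTCTTTTTCtcagttcctg
TRIM30A, another start, chr7:104446104-104446132, minus strand: tgtttttagtTTCTTTTTCtcagttcctg
TRIM30D, chr7:104507871-104507899, minus strand: gttctttagtTTCTTTTTCtcagttcctg
TRIM12C, chr7:104353359-104353387, minus strand: gagttgtggtTTCTGTTTCatttccagct
TRIM34A, chr7:104244458-104244486, plus strand: ggtttggagtTTCAGTTTCttttctctgc
TRIM34B, chr7:104329250-104329278, plus strand: tccttctgccTTCTCTTTCctgtgccacc
TRIM21, chr7:102565448-102565476, minus strand: ctgagagGAAACTGAAAGTGAAatttgga
TRIM25, chr11:88999384-88999412, plus strand: gcccctcctgTTCAGTTTCgattccttcc
TRIM26, chr17:36836980-36837008, plus strand: ttccgatTTCACTTTCCTTTTCtcgggcc

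Most of these cores lay close to the start. They began 9 bases before it in TRIM25, 28 in TRIM12C, 35 in TRIM30A and 40 in TRIM30D. In TRIM21 and TRIM34A they began 13 and 11 bases after it. TRIM26 and TRIM34B held theirs farther out, at 159 and 211 bases before the start. With a window of 150 bases before to 50 after, 6 of the 10 raised members and 2 of the 20 uncalled ones held the core. The shares were then 5.42% of all promoters and 6.27% of all genes. TRIM56 and TRIM72, which also rose, and TRIM54, which fell, had no match in either window. TRIM14 was not in the promoter table. The interferon-gamma activated site (GAS), searched as TTCNNNGAA, was found at TRIM45 and TRIM46 (8.30% of all promoters and 9.55% of all genes). The NF-kB site, searched as GGNNTTTCC, was found at TRIM12C (5.82% and 6.62%). In these members no match of 1 motif overlapped a match of another.

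TRIM30A and TRIM30D are neighbours that arose by duplication, and their starts show it. The 250 bases before the first-listed start of TRIM30A and the start of TRIM30D aligned with 89.0% identity, and those before the other start of TRIM30A with 60.7%. Against TRIM12C the starts of TRIM30A gave 55.1% and 49.2%. Both are printed here with the ISRE core in capitals, since these were the members with the largest rises under CX3CL1 and under IFN-γ.
TRIM30A, chr7:104465194-104465443, minus strand: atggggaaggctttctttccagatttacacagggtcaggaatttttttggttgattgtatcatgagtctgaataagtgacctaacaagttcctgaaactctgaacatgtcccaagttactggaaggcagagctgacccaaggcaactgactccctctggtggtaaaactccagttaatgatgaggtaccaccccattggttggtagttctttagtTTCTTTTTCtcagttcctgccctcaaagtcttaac
TRIM30D, chr7:104507850-104508099, minus strand: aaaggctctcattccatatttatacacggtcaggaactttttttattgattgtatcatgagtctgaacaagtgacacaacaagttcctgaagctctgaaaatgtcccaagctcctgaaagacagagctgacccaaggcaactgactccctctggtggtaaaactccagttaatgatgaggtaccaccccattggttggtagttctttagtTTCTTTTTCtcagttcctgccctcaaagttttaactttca

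The levels of the 39 members spanned from 0.301 TPM for TRIM40, a member tied to the gut, to 240 TPM for TRIM28, the corepressor that KRAB zinc finger proteins recruit to silence repeats and genes. TRIM28 stood at 237, 263 and 233 TPM without treatment, at 242, 209 and 245 with CX3CL1, at 259, 255 and 260.2 with IFN-γ and at 197, 231 and 249 with both, and these ranges overlapped except between IFN-γ and the 2 groups given CX3CL1. After TRIM28 came TRIM59, a membrane-anchored member, with a mean of 151 TPM, TRIM25 with 122, TRIM35 with 105 and TRIM30A with 103. TRIM8, the highest of the members with no C-terminal domain named, averaged 93.0 TPM.

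Members with each of several C-terminal architectures passed the filter. The highest member of the NHL class was TRIM3 (16.9 TPM), that of the microtubule-binding COS-FN3-SPRY class TRIM46 (6.30 TPM), and that of the muscle COS class TRIM54 (20.9 TPM). TRIM37 with its MATH domain averaged 33.2 TPM, TRIM23 with its ARF domain 16.3 and TRIM45 with its filamin domain 5.30. Just inside the filter were TRIM40 at 0.301 and TRIM69 at 0.450 TPM, and just outside it TRIM71 at 0.112 and TRIM66 at 0.0406 TPM, given only to show where the limit fell. Among those under the filter were TRIM38 and TRIM31, known from innate signaling, the muscle members TRIM63 and TRIM55, and TRIM5, TRIM12A and TRIM30B of the antiviral cluster.

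**Figure D1:**
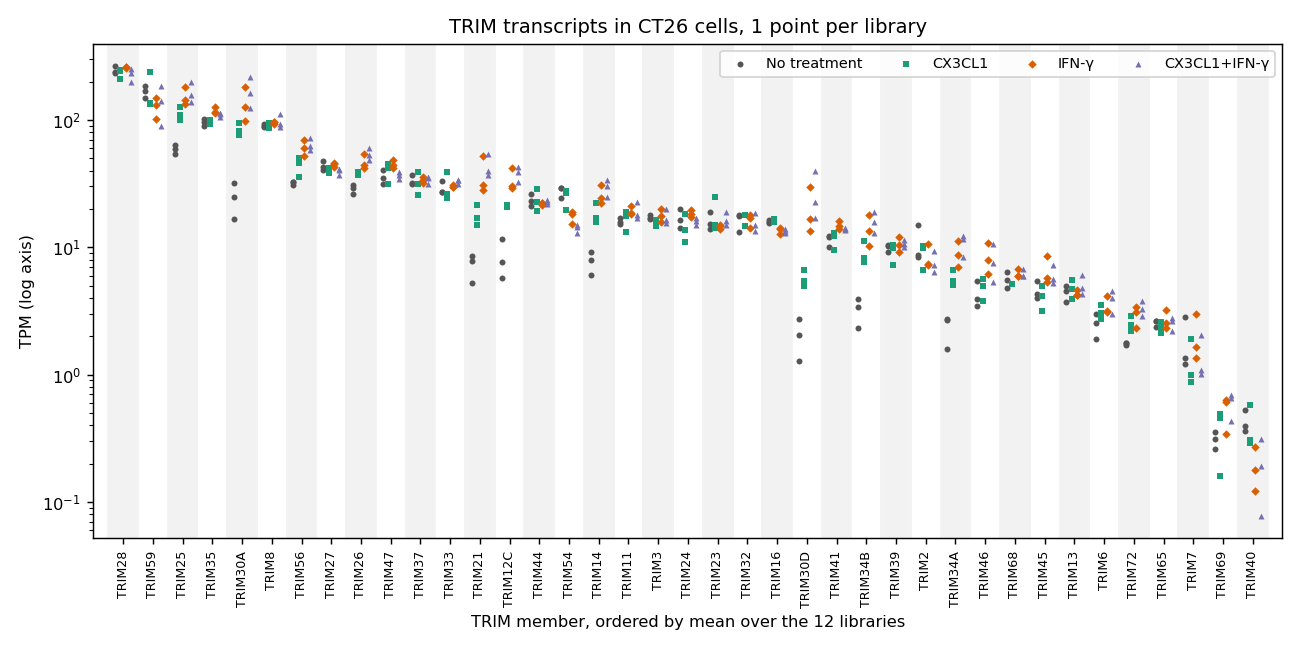
TPM of the 39 TRIM members on a log axis, ordered by their mean, with 1 point per library and a color and marker per group. The untreated libraries fall below the others in members such as TRIM25, TRIM30A, TRIM21 and TRIM30D, while those of TRIM28, TRIM8 and TRIM27 lie close together across all groups.

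The sum over all 68 members was 1122 ± 54.9 TPM (SD, n = 3) without treatment, 1287 ± 33.9 with CX3CL1, 1497 ± 110.3 with IFN-γ and 1535 ± 148 with both. The untreated libraries (1070 to 1180 TPM) lay below those of every other group. CX3CL1 added 165 TPM to the mean, of which TRIM30A gave 59.8 and TRIM25 52.9, and IFN-γ added 374, of which TRIM30A gave 111.2 and TRIM25 93.8. The sums were not tested, as with 3 libraries a group the smallest exact permutation p is 0.1. The calls below come from limma, which borrows spread across genes.

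CX3CL1 alone raised 7 of the 39 members and lowered none. These were TRIM30A, TRIM12C, TRIM34B and TRIM34A of the antiviral cluster on chromosome 7, and TRIM25, TRIM21 and TRIM14, which act in sensing of viruses or of antibody-coated particles. A call means an adjusted p under 0.05 in limma over the 11878 genes tested, and changes are given as log2 fold changes of TPM + 1, a scale that understates low genes. The 7 members were 17.9% of those tested, against 1.78% of all genes called higher and 0.168% called lower. Over the 39 members the median log2 fold change was 0.03, against -0.02 over all genes, so the family as a whole lay near the other genes and the difference sat in a few members.

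TRIM30A, which is known to dampen Toll-like receptor signaling to NF-kB, changed most with CX3CL1. It stood at 32.0, 16.6 and 24.6 TPM in untreated cells, at 76.1, 81.4 and 95.1 with CX3CL1, at 98.5, 126 and 183 with IFN-γ and at 124, 164 and 216 with both. Every treated library was above every untreated one, and the libraries given IFN-γ were above those given CX3CL1 alone. The mean with CX3CL1 was 3.45 times that of untreated cells, a log2 fold change of 1.79 (SE 0.26, adjusted p = 0.00231).

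TRIM12C, a relative of the retrovirus restriction factor TRIM5, rose from 11.6, 5.71 and 7.67 TPM to 20.6, 21.5 and 21.5 with CX3CL1. With IFN-γ it stood at 29.1, 30.1 and 41.7 TPM, and with both at 32.6, 38.9 and 42.6. The order of the groups was that of TRIM30A, with overlap only between IFN-γ and the combination. Its log2 fold change with CX3CL1 was 1.30 (SE 0.20, adjusted p = 0.00327).

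The paralogs TRIM34B and TRIM34A moved alike. TRIM34B stood at 3.42, 2.33 and 3.96 TPM without treatment and at 8.24, 7.64 and 11.2 with CX3CL1, and TRIM34A at 2.68, 1.58 and 2.72 and at 5.07, 5.43 and 6.61. With CX3CL1 all libraries of both genes were above the untreated ones, with log2 fold changes of 1.25 (SE 0.21, adjusted p = 0.00627) and 1.02 (SE 0.20, adjusted p = 0.0135). They are not independent: 30.5% of the 100-base words of the TRIM34B transcripts occur in TRIM34A, and 21.0% of those of TRIM34A in TRIM34B (GENCODE vM21). How reads shared by paralogs were counted is not given in the sources used here, so the split between them is uncertain. The antisense gene Gm47248 also covers 23.5% of the exon bases of TRIM34A. In TRIM30A, TRIM30D and TRIM12C the share of such words found in another member was 4.41%, 4.57% and 8.03%. The remaining tested member of the cluster, TRIM6, stood at 2.52, 1.91 and 2.97 TPM untreated and at 3.03, 2.73 and 3.51 with CX3CL1, and was not called (log2 fold change 0.25, adjusted p = 0.92).

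TRIM25, which ubiquitinates the RNA sensor RIG-I, was the most abundant of the raised members. It stood at 63.1, 53.5 and 59.2 TPM without treatment and at 109, 99.7 and 126 with CX3CL1. With IFN-γ it reached 133, 144 and 181 TPM, and with both 138, 156 and 198. The groups other than IFN-γ and the combination did not overlap. Its log2 fold change with CX3CL1 was 0.91 (SE 0.15, adjusted p = 0.00455).

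TRIM21, the cytosolic antibody receptor, rose with CX3CL1 from 8.51, 5.26 and 7.74 TPM to 16.9, 15.0 and 21.3, a log2 fold change of 1.21 (SE 0.24, adjusted p = 0.0154). TRIM14, which lacks a RING domain and acts as an adaptor of the sensor pathway at mitochondria, rose from 9.23, 6.04 and 8.002 TPM to 16.9, 15.7 and 22.1 (1.14, SE 0.18, adjusted p = 0.00367). In both genes all libraries with CX3CL1 exceeded all untreated ones. TRIM14 shares 31.3% of its exon bases with the gene Nans on the opposite strand, and whether reads were counted by strand is not given. Leaving out 1 library ended the call of TRIM21 (adjusted p = 0.0876 without untreated replicate 2, 0.0524 without untreated replicate 3 and 0.0851 without CX3CL1 replicate 3) and of TRIM34A (adjusted p = 0.0743 without untreated replicate 2 and 0.0761 without CX3CL1 replicate 3). With no filter on low TPM both also lost their call (adjusted p = 0.0624 for TRIM21 and 0.0574 for TRIM34A).

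Several members moved by smaller or more variable amounts. TRIM30D stood at 2.75, 1.27 and 2.05 TPM untreated and at 5.39, 4.996 and 6.58 with CX3CL1, and did not pass (log2 fold change 1.16, SE 0.31, adjusted p = 0.109). It did pass in limma with a pseudocount of 0.1 (1.49, adjusted p = 0.0444). The same held in a fit of the compared groups alone (adjusted p = 0.0174) and with the replicate block (adjusted p = 0.0236). TRIM56 (0.44, adjusted p = 0.216), TRIM26 (0.38, adjusted p = 0.185) and TRIM72 (0.35, adjusted p = 0.37) did not pass in the reported fit, and TRIM7 stood at -0.29. The libraries of 11 members lay wholly above the untreated ones, against 5.50% of all genes, and those of 1 member, TRIM3, wholly below, against 5.73%. Without CX3CL1 replicate 2, the library that stood apart, TRIM56 passed (0.57, adjusted p = 0.0418) and 8 members were called higher. In TRIM59 that library held 239 TPM, against 133 and 135 in the rest of its group. Replicate 2 was also the highest for TRIM59 with IFN-γ (149 TPM, against 102 and 132) and with both (185, against 89.8 and 141). It was not the highest without treatment (168, against 186 and 149).

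**Figure D2:**
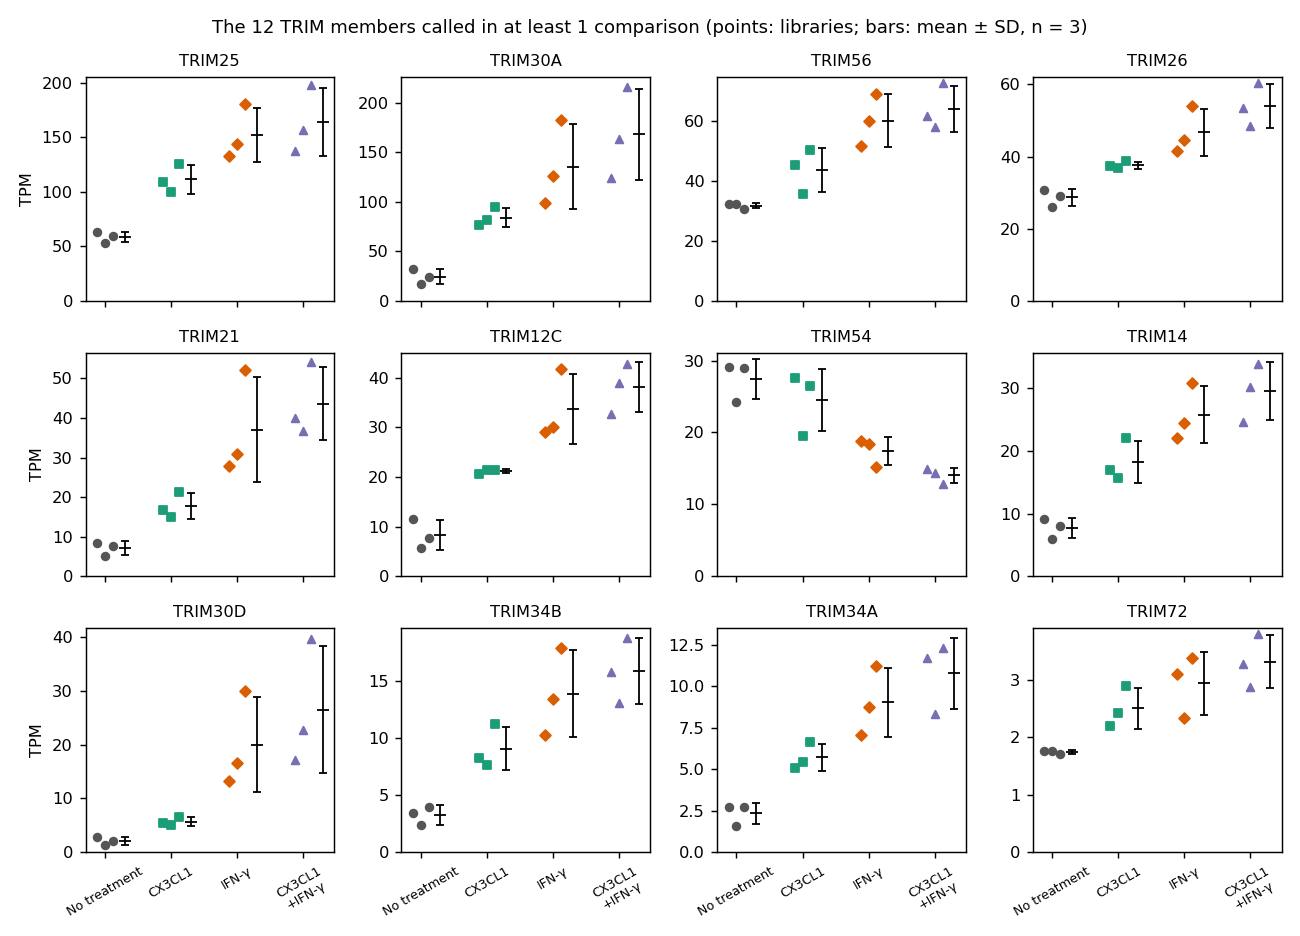
TPM in every library for the 12 members called in at least 1 of the comparisons of the design, with the mean and SD of each group (n = 3) beside the points and axes that start at 0. In 11 panels the levels go up from untreated cells to CX3CL1 and to the groups given IFN-γ, and in TRIM54 they go down.

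IFN-γ alone raised 11 members and lowered 1. The raised members were those just named for CX3CL1, whose comparison uses the same untreated libraries, with TRIM30D, TRIM56, TRIM26 and TRIM72, and the lowered one was TRIM54. The raised members were 28.2% of those tested, against 5.91% of all genes called higher, and 1.94% of all genes were called lower. Over all genes 702 were higher and 230 lower, a split that moved to 640 and 351 with median-ratio scaling and to 556 and 536 with quantile normalization, under which 10 members were higher and 2 lower. The libraries of 18 members lay wholly above the untreated ones, against 20.6% of all genes, and those of 3 wholly below, against 13.7%. The median log2 fold change of the members was 0.14, against 0.03 over all genes.

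The largest log2 fold change was that of TRIM30D, the neighbour of TRIM30A. TRIM30D rose from 2.75, 1.27 and 2.05 TPM to 13.3, 16.6 and 29.96 with IFN-γ, 9.86 times the untreated mean (log2 fold change 2.74, SE 0.31, adjusted p = 9.17e-05). With both agents it stood at 17.0, 22.8 and 39.7 TPM. Its libraries with IFN-γ lay above those with CX3CL1 alone.

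For TRIM30A the log2 fold change with IFN-γ was 2.43 (SE 0.26, adjusted p = 5.36e-05). TRIM21 reached 28.0, 31.0 and 52.2 TPM with IFN-γ and 39.996, 36.8 and 54.0 with both (2.19 with IFN-γ, SE 0.24, adjusted p = 5.73e-05). TRIM12C (1.92, SE 0.20), TRIM34B (1.80, SE 0.21), TRIM14 (1.62, SE 0.18), TRIM34A (1.59, SE 0.20) and TRIM25 (1.35, SE 0.15) followed, each with an adjusted p of at most 0.000169. TRIM30D and these 7 members kept their call when any 1 library was left out.

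TRIM56, which promotes signaling from the DNA and double-stranded RNA sensors, stood at 32.2, 32.4 and 30.8 TPM without treatment, at 45.4, 35.9 and 50.3 with CX3CL1, at 51.6, 60.0 and 69.1 with IFN-γ and at 61.8, 58.1 and 72.7 with both. Its log2 fold change with IFN-γ was 0.89 (SE 0.14, adjusted p = 0.00123). TRIM26, whose gene lies in the major histocompatibility region, stood at 30.8, 25.999 and 29.2 TPM untreated, at 37.4, 36.8 and 38.7 with CX3CL1, at 41.7, 44.5 and 54.1 with IFN-γ and at 53.4, 48.4 and 60.3 with both. In both genes the untreated, CX3CL1 and IFN-γ libraries formed 3 ranges with no overlap. TRIM26 changed by 0.68 with IFN-γ (SE 0.12, adjusted p = 0.00253).

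TRIM72, a muscle protein of membrane repair, was low throughout, with 1.77, 1.77 and 1.71 TPM untreated and 3.11, 2.34 and 3.39 with IFN-γ, with no overlap. With CX3CL1 it stood at 2.20, 2.43 and 2.90 TPM and with both at 3.28, 2.88 and 3.80. Its call (0.51, SE 0.13, adjusted p = 0.0287) rested on single libraries, since leaving out any of 5 of the 6 ended it, with an adjusted p of 0.0651 without untreated replicate 1, 0.077 without untreated replicate 2, 0.102 without untreated replicate 3, 0.106 without IFN-γ replicate 1 and 0.134 without IFN-γ replicate 3. An antisense gene, Gm15533, covers 27.6% of its exon bases.

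TRIM54, a muscle ring finger protein that binds microtubules, was the member that fell. It stood at 29.2, 24.2 and 28.9 TPM without treatment, at 27.6, 19.5 and 26.5 with CX3CL1, at 18.8, 18.4 and 15.2 with IFN-γ and at 14.9, 14.4 and 12.9 with both. The libraries given IFN-γ were below all others, and those given both were below those given IFN-γ alone. Its log2 fold change with IFN-γ was -0.62 (SE 0.14, adjusted p = 0.0157), and this call ended without untreated replicate 1 (adjusted p = 0.0567), untreated replicate 3 (0.0779) or IFN-γ replicate 3 (0.0864). The antisense gene Gm15469 covers 26.6% of its exon bases. TRIM16 and TRIM40, chosen after their values were seen, were the other members whose IFN-γ libraries all lay below the untreated ones (log2 fold changes -0.20 and -0.27, adjusted p = 0.212 and 0.193).

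A few members came near the threshold. TRIM46, which bundles microtubules in the axon, stood at 5.45, 3.44 and 3.95 TPM untreated and at 10.8, 6.18 and 7.96 with IFN-γ (0.81, SE 0.23, adjusted p = 0.0555). TRIM35 stood at 96.1, 102 and 89.97 TPM untreated and at 126, 112 and 116 with IFN-γ, with no overlap (0.29, SE 0.08, adjusted p = 0.0506). TRIM45 (0.42, adjusted p = 0.206), TRIM59 (-0.40, adjusted p = 0.41), TRIM6 (0.37, adjusted p = 0.19) and TRIM41 (0.35, adjusted p = 0.113) were farther from it. With the replicate number as a block, 16 members were called higher, with TRIM46 (adjusted p = 0.000226), TRIM35 (0.0276), TRIM45 (0.0164), TRIM6 (0.0181) and TRIM41 (0.0463) added. The calls over all genes also rose with that block, from 702 to 1353 higher and from 230 to 576 lower.

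**Figure D3:**
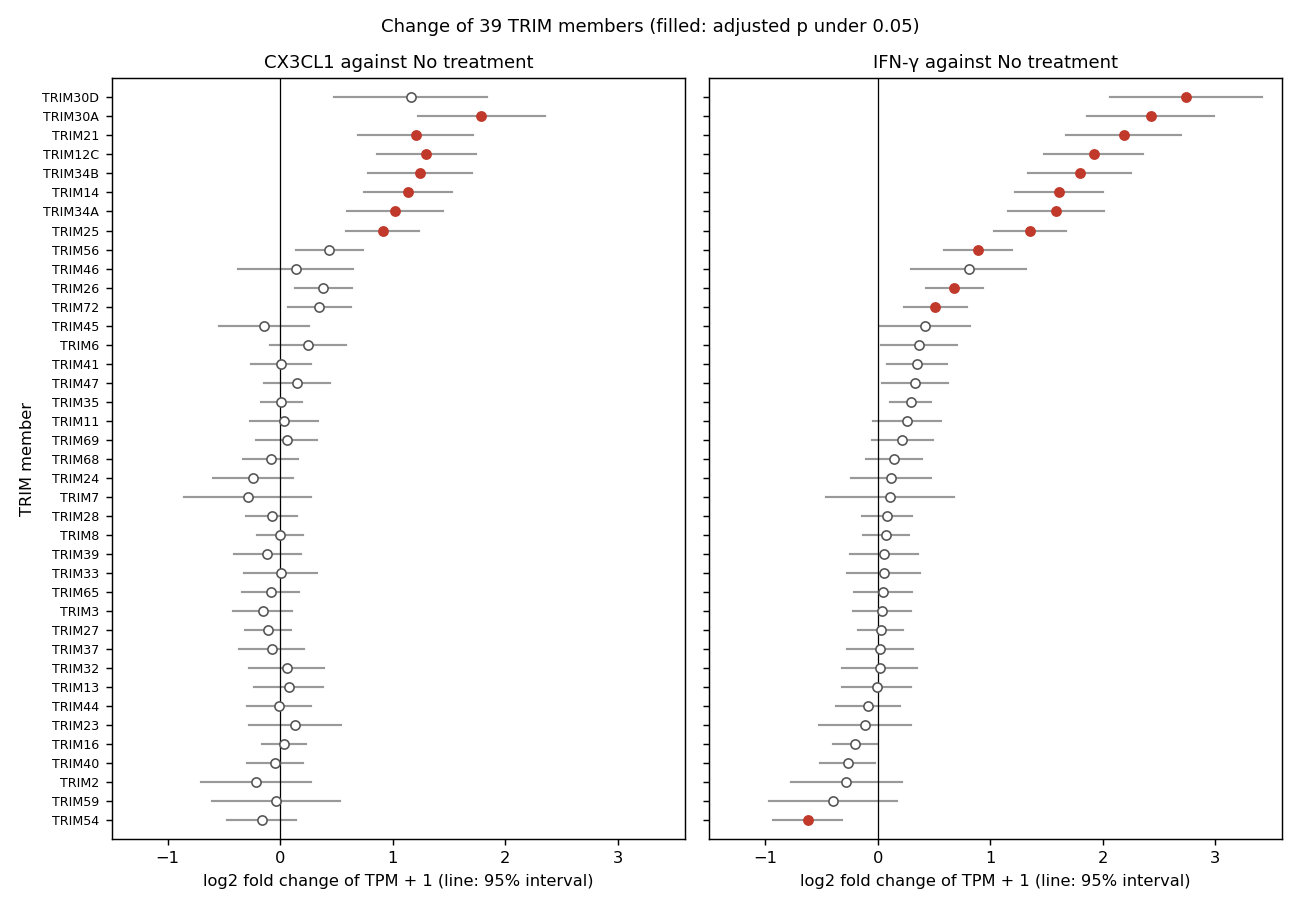
Log2 fold change of TPM + 1 for the 39 members with CX3CL1 (left) and with IFN-γ (right) against the same untreated libraries, with 95% intervals and filled points for adjusted p under 0.05. In the left panel 7 points are filled, up to 1.79 for TRIM30A, and in the right panel 12, from -0.62 for TRIM54 to 2.74 for TRIM30D.

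Between the single treatments, in a comparison added after seeing the data, IFN-γ gave higher levels than CX3CL1 of TRIM30D (log2 difference 1.58, SE 0.31, adjusted p = 0.0136) and TRIM21 (0.98, SE 0.24, adjusted p = 0.0359). No member was lower, with TRIM54 at -0.46 (adjusted p = 0.086). Over all genes 3.52% were called higher and 1.06% lower, a split of 418 and 126 genes that moved to 303 and 246 with median-ratio scaling and to 278 and 236 with quantile normalization. TRIM21 passed no longer without CX3CL1 replicate 1 (adjusted p = 0.0729) or 2 (0.111) or IFN-γ replicate 2 (0.056) or 3 (0.125), and TRIM30D no longer without CX3CL1 replicate 2 (0.0538) or IFN-γ replicate 3 (0.0589). TRIM21 also lost its call with no filter on low TPM (0.0825), with median-ratio scaling (0.0577), with quantile normalization (0.054) and in a limma fit of the compared groups alone (0.0814). With the replicate block, 10 members were higher and TRIM54 was lower (adjusted p = 0.0356). The calls over all genes also rose with that block, to 1222 higher and 379 lower. The agents and their doses differ, so these are levels side by side at 8 hours and not a ranking of potency.

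Adding IFN-γ to CX3CL1, a comparison that shares no library with that of IFN-γ and untreated cells, raised TRIM30D (1.97, SE 0.31, adjusted p = 0.00295), TRIM21 (1.24, SE 0.24, adjusted p = 0.00873), TRIM26 (0.51, SE 0.12, adjusted p = 0.0271), TRIM34A (0.80, SE 0.20, adjusted p = 0.0345), TRIM12C (0.81, SE 0.20, adjusted p = 0.0399) and TRIM56 (0.55, SE 0.14, adjusted p = 0.0429), and lowered TRIM54 (-0.75, SE 0.14, adjusted p = 0.00811). These 6 higher members were 15.4% of those tested, against 3.76% of all genes, and 0.935% of all genes were lower. Over all genes the split of 447 higher and 111 lower moved to 357 and 187 with median-ratio scaling and to 349 and 228 with quantile normalization. All 6 were also called higher, and TRIM54 lower, when IFN-γ was compared with no treatment. TRIM14 (0.67, adjusted p = 0.054), TRIM30A (0.96, adjusted p = 0.057), TRIM25 (0.54, adjusted p = 0.0594), TRIM34B (0.75, adjusted p = 0.0676) and TRIM46 (0.58, adjusted p = 0.212) did not pass. The count moved with the fit. It was 12 with the replicate block, which added TRIM25, TRIM30A, TRIM14, TRIM34B, TRIM46 and TRIM45 (adjusted p from 0.00332 to 0.0203), 2 higher and 2 lower with median-ratio scaling, 2 without CX3CL1 replicate 1 and 1, TRIM30D, without CX3CL1+IFN-γ replicate 3. The calls over all genes also rose with the block, to 1035 higher and 334 lower. TRIM30D and TRIM54 kept their calls whichever library was left out, and TRIM21 lost its call only without CX3CL1+IFN-γ replicate 3 (adjusted p = 0.0511). TRIM12C lost its call without any 1 of the 6 libraries (adjusted p from 0.0535 to 0.164). TRIM34A lost it without replicate 1 or 2 of CX3CL1 or replicate 1 or 3 of the combination (0.0717 to 0.154), TRIM56 without the same 4 (0.0768 to 0.187), and TRIM26 without replicate 1 or 3 of either group (0.0622 to 0.138).

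When CX3CL1 was added to IFN-γ, no member was called in either direction. None reached an unadjusted p under 0.05 either, and the replicate block gave no call. Over all genes 0.345% were higher and 0.0168% lower. The largest differences were those of TRIM30D (0.39, 95% interval -0.29 to 1.07), TRIM7 (-0.32, -0.88 to 0.25), TRIM30A (0.32, -0.25 to 0.88), TRIM54 (-0.29, -0.60 to 0.01) and TRIM47 (-0.28, -0.57 to 0.02), so a log2 change of 1 in TRIM30D lies within its interval. TRIM33, chosen with the next named after their values were seen, had all libraries of the combination above those of IFN-γ (8.54% of all genes did). TRIM28, TRIM27, TRIM47, TRIM54 and TRIM24 had all of them below (7.74% of all genes). TRIM28, TRIM33 and TRIM24 are the chromatin members, and none was called in any comparison of the design. They are too few to set this against the shares of all genes called.

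The change with CX3CL1 was set against that in the presence of IFN-γ by the interaction, the difference of both. For TRIM30A the log2 fold change was 1.79 without IFN-γ and 0.32 with it, a difference of -1.47 (SE 0.37, adjusted p = 0.373). TRIM12C differed by -1.11 (SE 0.29, adjusted p = 0.389), TRIM34B by -1.04 (SE 0.30, adjusted p = 0.58) and TRIM25 by -0.81 (SE 0.21, adjusted p = 0.396). No member passed, and over all genes 0% were called higher and 0% lower. These counts of 0 depended on the fit. With the replicate block 3 genes were higher and 49 lower, TRIM34B among the latter (adjusted p = 0.0452), and without untreated replicate 1 there were 11 lower, with no member among them. At an unadjusted p under 0.05 there were 8 members, all negative, and 273 of all genes. Of these 8, TRIM47 aside, each was among the 7 raised by CX3CL1 alone, and since that change enters the interaction with a minus sign their direction is not independent of that choice.

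**Figure D4:**
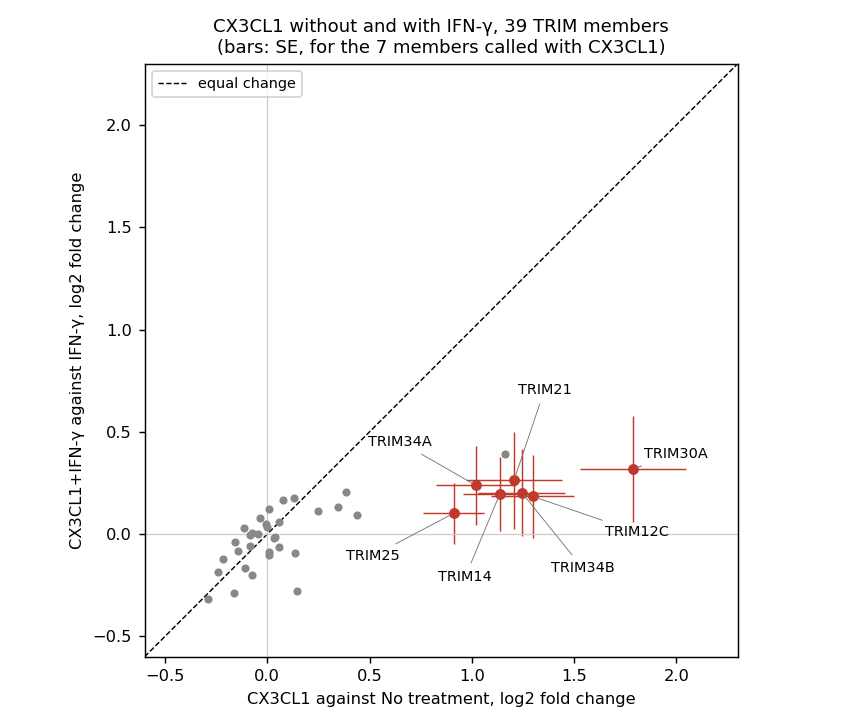
Log2 fold change with CX3CL1 in cells without IFN-γ (horizontal axis) and in cells given IFN-γ (vertical axis) for the 39 members, with SE bars for the 7 called with CX3CL1 alone and a dashed line where both would be equal. The 7 lie right of and below the line, between 0.91 and 1.79 on the horizontal axis and at most 0.32 on the vertical one.

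The partners of these ligases were read from lists of genes known to work with them. Of 13 ubiquitin-conjugating enzymes tested, 1 was called, UBE2L6, which carries the ubiquitin-like protein ISG15. UBE2L6 was called higher with CX3CL1 and with IFN-γ, where 1.78% and 5.91% of all genes were higher. It rose from 157, 86.4 and 119 TPM to 269, 217 and 299 with CX3CL1 (log2 fold change 1.14, SE 0.19, adjusted p = 0.00515) and to 477, 491 and 576 with IFN-γ (2.12, SE 0.19, adjusted p = 1.3e-05). UBE2D3 and UBE2N, which serve many RING ligases, averaged 301 and 91.4 TPM and were not called.

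Of 22 innate signaling partners, 6 rose with CX3CL1 and none fell, against 1.78% of all genes higher and 0.168% lower. RIG-I (DDX58), the target of TRIM25, rose from 28.5, 18.9 and 23.3 TPM to 72.6, 80.6 and 81.0 (1.70, SE 0.16, adjusted p = 0.000128). Among the others that rose were the RNA sensor IFIH1 (1.83, SE 0.23), the transcription factors STAT2 (1.42, SE 0.22) and IRF9 (0.80, SE 0.11), and the kinase IKBKE (1.05, SE 0.23). The median over the list was 0.15. IFN-γ raised 7 partners (5.91% of all genes were higher), among them DDX58 (2.09), IFIH1 (2.40), STAT2 (2.64), IRF9 (1.12), IRF1 (2.31) and IRF7 (3.84), with a median of 0.25. TBK1, MAVS and the TAB proteins were not called in any comparison.

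None of the 10 partners of TRIM28 in silencing, among them SETDB1 and CBX5, was called in any comparison. Over all genes 1.78% were higher and 0.168% lower with CX3CL1, and 5.91% and 1.94% with IFN-γ. With so few partners, the lack of calls does not set them apart from these shares. Of the relatives that carry the tripartite motif under another name, 3 of 8 passed the filter. PML, the core of nuclear bodies, stood at 37.6, 34.3 and 34.0 TPM untreated and at 47.7, 54.9 and 59.0 with IFN-γ (0.59, SE 0.12, adjusted p = 0.0081). With CX3CL1 PML stood at 53.4, 41.5 and 51.3 TPM, all above the untreated libraries, and was not called (0.45, adjusted p = 0.103). MID2, a microtubule-bound ligase, stood at 15.0, 12.9 and 11.8 TPM and at 7.75, 7.85 and 7.76 (-0.69, SE 0.16, adjusted p = 0.0212). With CX3CL1 MID2 was not called (-0.24, adjusted p = 0.967). In each gene the IFN-γ libraries did not overlap the untreated ones, as in 20.6% of all genes upward and 13.7% downward.

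By role, 4 of the 6 tested members of the chromosome 7 cluster rose with CX3CL1 and 5 with IFN-γ, with median log2 fold changes of 1.203 and 1.859, against 1.78% and 5.91% of all genes called higher. These 6 lie between the start of TRIM6 and the end of TRIM30D (chromosome 7, 104218793 to 104507849, GRCm38), and TRIM21 lies on the same chromosome at 102557921 to 102565486. Of the 11 other members known from innate signaling, 3 and 5 rose, against the same shares of all genes, with medians of 0.13 and 0.14. Among the 19 members with other roles, none was called with CX3CL1, and 1 rose and 1 fell with IFN-γ. Over all genes 0.168% were lower with CX3CL1 and 1.94% with IFN-γ, beside the shares higher just given. The same libraries were high or low across the 11 members raised by IFN-γ. Replicate 3 was the highest library of its group in all 11 with IFN-γ and in all 11 with both agents, and in 10 with CX3CL1. Without treatment it was the highest in 2, and replicate 1 in 7. Untreated replicate 2 was the lowest of its group in 9, and IFN-γ replicate 1 in 10. These members are not independent of each other, and the part of these libraries in the results was not tested beyond leaving each out.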

How the data were processed

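The data were 1 table of TPM values, transcripts scaled to a fixed library total, by gene symbol for 12 libraries of CT26 cells, 3 in each of 4 groups. To make the deposited TPM, the authors aligned reads of strand-specific mRNA libraries to UCSC mm10 and counted genes with STAR 2.7.3a in the VIPER pipeline. DESeq2 1.22.1 was their test on counts, which were not used here. The annotation, the step from counts to TPM, the use of strand and the handling of shared reads are not given in the sources used here. Each library sums to 1000000 TPM, so depth is unknown. Of 23636 symbols, 6747 were at 0 in all libraries, 26 had been turned into dates and 2 names occurred more than once.

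Genes averaging 0.2 TPM or more (11878) were tested on the scale log2(TPM + 1). The 12 libraries entered 1 fit in limma 3.58.1 (R 4.3.3) with moderated tests, an intensity trend and Benjamini-Hochberg adjustment over all genes tested, and an adjusted p under 0.05 was a call. Groups were taken from the labels, which call the libraries biological replicates without saying what was separate, so p-values measure the spread between these libraries. Each result was recomputed after quantile normalization or median-ratio scaling, with the replicate number as a block, without the trend, from the compared groups alone, with 0.1 as the pseudocount, with the TPM filter removed or raised to 1, with calls limited to a log2 change of 1 or more, and with every library dropped in turn. The fit was tested on simulated data. Motifs and sequences came from RefSeq (GRCm38.p6), and positions and shared words from GENCODE vM21, with Python 3.11.15, pandas 2.3.3 and numpy 2.4.6.

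The labels give a replicate number and no statement of what it shares. Deviations of same-numbered libraries from their group means correlated at 0.429, 0.460 and 0.220 between untreated and IFN-γ libraries. Between IFN-γ and the combination the values were 0.630, 0.635 and 0.649, and between CX3CL1 and the combination 0.351, 0.353 and 0.428. Between CX3CL1 and IFN-γ they were 0.584, 0.361 and 0.226. From these data a shared number may mark pairs. The reported calls and p-values do not use such a pairing, and the replicate block was run as an alternative only. Between untreated and CX3CL1 libraries the values were 0.387, 0.00472 and 0.301, the low one with CX3CL1 replicate 2, the library that stood apart. Between untreated libraries and the combination they were 0.312, 0.447 and 0.0324, the low one in replicate 3, without that library. Libraries of different numbers correlated at -0.477 to 0.253, the highest between untreated replicate 2 and CX3CL1 replicate 3. If the numbers mark pairs in the other groups they do so in these comparisons too, which these values alone do not show.

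The members, the partner and marker lists and the tests were chosen with earlier results of these data known. Members named with values were those called in any comparison of the design, the 5 with the highest mean, the highest of each architecture, and the 5 uncalled members with the largest change in each comparison of 2 groups. The members just inside and outside the filter are given for that limit. Others are said to have been chosen after their values were seen. Some members of the marker and partner lists are not reported here.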

Additional observations from a re-analysis of the deposited data

How the results depend on the processing

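No called log2 fold change of a named member changed sign under the alternatives run. The fits without the trend, with the block, from the compared groups alone or with a minimum change leave the estimate as it is. Those settings could not change a sign. With CX3CL1 against no treatment the count of members higher ran from 5 to 9 over the alternatives (7 as reported), and from 5 to 8 when 1 library was left out. The replicate block, whose pairing was less clear between these groups, gave 9, with TRIM30D and TRIM26 added. The block also raised the calls over all genes, from 212 to 347 higher and from 20 to 108 lower. With IFN-γ against no treatment the count higher ran from 8 to 16, and that of members lower (1 as reported) was 2 with quantile normalization, 0 when calls needed a log2 change of 1 or more, and 0 to 1 when 1 library was left out. For CX3CL1+IFN-γ against CX3CL1 the count higher (6 as reported) was 3 with no filter, 2 with median-ratio scaling, 3 with quantile normalization, 12 with the replicate block, 2 with that minimum change, and 1 to 5 when 1 library was left out, and the count lower was 2, 2 and 0 with median-ratio scaling, quantile normalization and that minimum. For the interaction the replicate block gave 1 member lower, TRIM34B (adjusted p = 0.0452). For IFN-γ against CX3CL1 the count higher (2 as reported) was 1 with quantile normalization, with median-ratio scaling, in a fit of the compared groups alone or with that minimum, 10 with the replicate block, and 0 to 2 when 1 library was left out, and the count lower was 1 with either scaling or the block and 0 to 1 when 1 library was left out. The shorter promoter window left the GAS element in 1 member. The causes of these changes were not tested. CX3CL1+IFN-γ against IFN-γ gave 0 calls throughout. Depth is unknown, so no counting error could be given for the low members, and this scale understates their changes.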
